A study of Cyprinodon variegatus with 4 samples.

Results

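Among 257521 assembled contigs of sheepshead minnow larvae (Cyprinodon variegatus, a small estuarine fish), 28 were annotated as mitochondrial uncoupling proteins or as ADP/ATP translocases. They were taken by their protein descriptions: any that named a mitochondrial or brown fat uncoupling protein, or that began with "ADP/ATP translocase". All 16 uncoupling contigs were described as mitochondrial uncoupling protein 2 (UCP2, symbol ucp2), and 0 as brown fat uncoupling protein. The other 12 were described as ADP/ATP translocase 1 (4 contigs, SLC25A4), translocase 2 (3 contigs, SLC25A5) and translocase 3 (5 contigs, SLC25A6). UCP2 was picked out because its level was higher in both fibre-exposed libraries, so its contrasts between libraries with and without fibres are descriptions.

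RNA came from whole larvae, 1 library per group. The control has no treatment listed, the surfactant control received Tween 80 at 0.001%, and the other groups received microfibres made of the textile polyester polyethylene terephthalate (PET) at 10 mg/L (low PET) or 100 mg/L (high PET). Below, these are the untreated, Tween, low PET and high PET libraries, and 4 values in a row follow that order. The labels give a stage of 72 h after fertilization and 10 days of exposure. Whether Tween 80 was added with the fibres, and how many larvae made up a library, are not given in the sources used here. With 1 library per group there is no replicate check, no test and no error for any value, and every statement below compares libraries. In RNA of whole larvae, fewer cells of a type and less RNA per cell cannot be told apart.

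Both families sit in the inner mitochondrial membrane and belong to the SLC25 mitochondrial carriers. The ADP/ATP translocases bring ADP into the matrix and release ATP made there by ATP synthase, so they are among the most abundant mitochondrial membrane proteins, with translocase 1 typical of muscle and heart in mammals. Uncoupling proteins are related carriers. UCP1 of mammalian brown fat lets protons return to the matrix without making ATP, whereas UCP2 is found in many tissues, and its transport activity and its part in limiting reactive oxygen species and in fuel choice are still debated. Fatty acids and fasting raise Ucp2 transcripts in several mammalian tissues.

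The values were FPKM, a density of fragments per length of contig and size of library, which summed to between 1039707 and 1080208 in a library. Since FPKM carries no counts, the depth of each library is unknown. The heaping of low values at fixed ratios put the other libraries at 77.1 to 80.9% of the depth of the untreated library. Markers of several tissues were above 0 in all 4 libraries: fast skeletal muscle troponin I at 997 to 1209 FPKM, atrial myosin light chain at 41.3 to 58.1, fibrinogen gamma chain of liver at 124.5 to 185, ELAVL3 of neurons at 19.7 to 26.8 and intestinal fatty acid-binding protein at 103 to 125. Of the 5 muscle markers looked for, MYLPF was matched to 1 contig, which was listed at 0 in every library. Markers were matched by symbol, so contigs of the same gene under other symbols are not counted. Of 7 markers of macrophages and granulocytes, 2 were matched to a contig.

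Summed over its 16 contigs, UCP2 was at 297 FPKM (untreated), 267 (Tween), 460 (low PET) and 445 (high PET). The order from the lowest level was Tween, untreated, high PET and low PET, with the pair of libraries without fibres below the pair with them. Against the Tween library, low PET was 1.72-fold and high PET 1.67-fold higher. Against the untreated library the same libraries were 1.54-fold and 1.5-fold higher. The Tween library was 0.898 times the untreated library, and high PET was 0.969 times low PET. The summed level was thus no higher at the 10-fold higher fibre concentration, with 1 library at each. Without the 2 contigs of highest level, the rest summed to 53.1 FPKM in high PET against 38.8 in low PET.

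**Figure D1:**
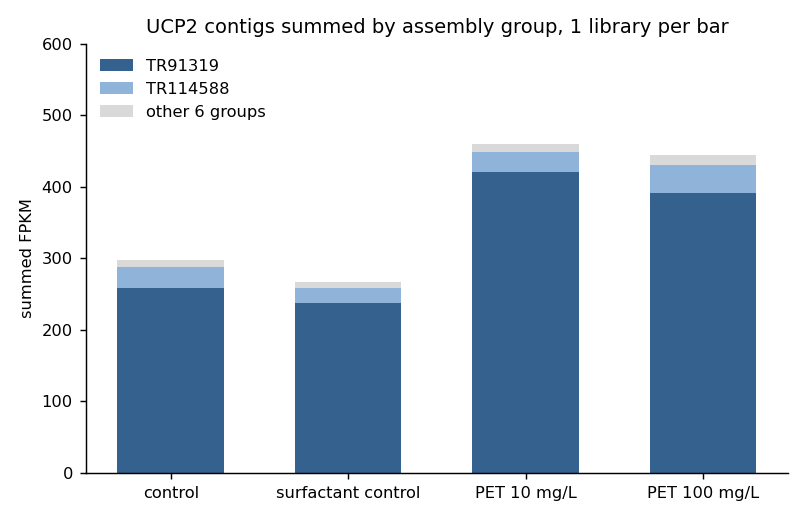
Summed FPKM of the UCP2 contigs in each of the 4 libraries, stacked by assembly group; each bar is 1 library, so there are no error bars. The group TR91319 fills most of every bar and carries most of the step from 267 FPKM in the Tween library to 460 and 445 FPKM in the PET libraries.

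On the log2(FPKM + 0.5) scale the ratios of UCP2 to the Tween library were 0.78 in low PET and 0.74 in high PET. Among the 406 annotations with a summed mean of at least 100 FPKM, the former was the highest of all and the latter ranked 2. At least 1.5-fold above the Tween library were 0.739% of these annotations in low PET and 0.985% in high PET. Since UCP2 was chosen by these contrasts, nothing is read from its place among them. The libraries without fibres took part in the choice too; between them, Tween against untreated, UCP2 had a log2 ratio of -0.16 and ranked 32 from the bottom of the 406.

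By level, UCP2 ranked 176 among the 9609 annotations in the untreated library, 192 in the Tween library, 146 in low PET and 145 in high PET. Sums over contigs add densities of fragments that may come from the same transcript, so they rank annotations only roughly. The table's contig lengths were not used, as they did not scale with the steps of the FPKM values.

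Of the 16 UCP2 contigs, 9 averaged 1 FPKM or more in the 4 libraries. They fell into 5 assembly groups, here the contigs whose names share the number after TR. In the usual convention of such names, contigs that differ only in the last number (i1, i2) are alternative forms of 1 assembled gene. A filter on the mean favours contigs that are high somewhere, so the counts below describe those 9 and not all members.

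The main contig, TR91319|c1_g1_i1, was at 228 FPKM (untreated), 211 (Tween), 370.2 (low PET) and 344 (high PET). Its alternative form, TR91319|c1_g1_i2, was at 29.9, 26.8, 50.6 and 47.8 FPKM. Both forms had the same order of libraries as the sum, with both PET libraries above both libraries without fibres. The second form made up 11.6% of the group in the untreated library, 11.3% in the Tween library, 12.0% in low PET and 12.2% in high PET, so the split between the forms, which RSEM estimates from shared reads, was alike in all 4 libraries. TR91319 held between 86.8 and 91.6% of the UCP2 sum. Of the 192.5 FPKM by which low PET exceeded the Tween library, TR91319 carried 94.9%, and of the 178.3 FPKM in high PET it carried 86.5%.

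The group TR114588 held 4 contigs, which did not share 1 order of libraries. TR114588|c0_g1_i1 was at 6.56 FPKM (untreated), 5.49 (Tween), 10.2 (low PET) and 12.8 (high PET), with both PET libraries above the others. TR114588|c0_g2_i1 was at 19.1, 13.1, 12.9 and 20.8 FPKM, so that low PET was at the level of the Tween library and high PET at that of the untreated library. The smaller TR114588|c0_g2_i3 was at 2.49, 1.43, 2.47 and 3.05 FPKM and TR114588|c0_g2_i2 at 1.70, 0.77, 1.90 and 2.15. In each of these 4 contigs high PET was the highest library. The group summed to 29.9, 20.8, 27.5 and 38.8 FPKM, which put low PET below the untreated library by a log2 ratio of -0.12.

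The remaining contigs past the filter were low. TR14168|c0_g1_i1 was at 3.15, 2.30, 4.87 and 3.41 FPKM across the libraries, with both PET libraries again the higher pair. TR96089|c0_g2_i1 was at 2.81, 2.66, 1.66 and 3.60 FPKM, lowest in low PET and highest in high PET. TR102800|c0_g2_i3 was at 0.78, 1.52, 1.5 and 0.82 FPKM, with the Tween library and low PET above the other pair. Thus 5 of the 9 contigs had both PET libraries above both without fibres, beside 24.0% of all contigs past the filter, and 6 of the 9 were lowest in the Tween library, beside 26.1%. The libraries compared here are those that chose UCP2, so nothing is read from either count.

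**Figure D2:**
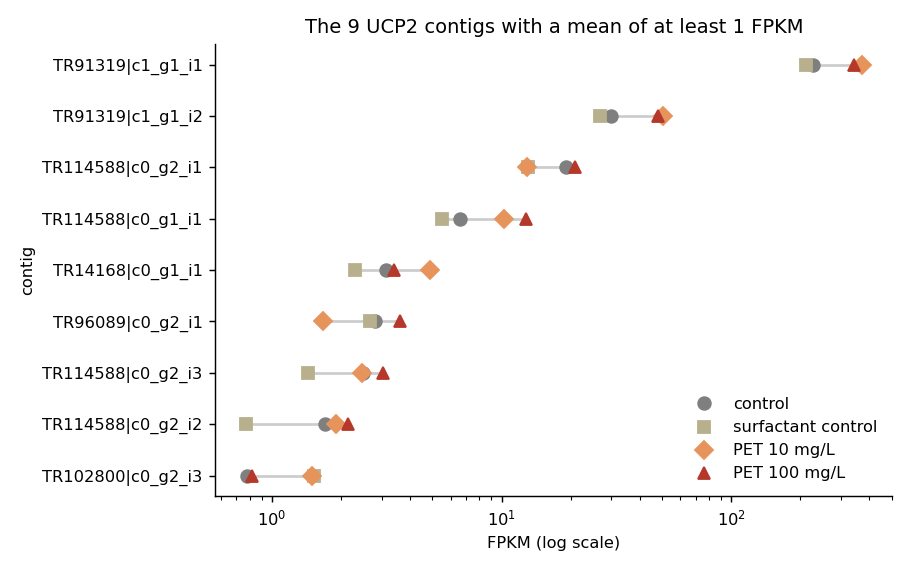
FPKM (log axis) of the 9 UCP2 contigs averaging 1 FPKM or more, 1 symbol per library, with a grey line over the range. The 2 contigs of TR91319, TR114588|c0_g1_i1, TR14168|c0_g1_i1 and TR114588|c0_g2_i2 have both PET symbols to the right of the others, while TR96089|c0_g2_i1 is lowest in low PET, at 1.66 FPKM.

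At least 1.5-fold above the Tween library were 6 of the 9 contigs in low PET and 6 of 9 in high PET, beside 14.8% and 17.1% of all 45298 contigs averaging 1 FPKM or more. Against the untreated library there were 4 of 9 and 3 of 9, beside 14.9% and 17.4%. These contrasts chose UCP2, and contigs of 1 transcript are not independent, so the counts are descriptions. Without TR91319 the other 14 contigs summed to 39.3 FPKM (untreated), 29.0 (Tween), 38.8 (low PET) and 53.1 (high PET). By that sum low PET was at the level of the untreated library, with a log2 ratio of -0.019, and high PET was above it by 0.43.

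The 7 UCP2 contigs under 1 FPKM had means of 0.15 to 0.76 FPKM and together summed to 2.71, 1.77, 3.24 and 6.54 FPKM across the libraries. The highest single value among them was 2.65 FPKM in high PET, in TR42192|c0_g1_i1, which was listed at 0 in the other 3 libraries. Whether all 16 contigs belong to 1 gene was not tested. Their best protein matches were 5 different Swiss-Prot entries for UCP2. The RefSeq gene table of the C_variegatus-1.0 assembly has an entry named ucp1 and none named ucp2 or ucp3. Of the translocase symbols, it has slc25a4 and neither slc25a5 nor slc25a6. Only symbols were searched, so a gene listed there under another name would have been missed. Reads that fit several of the UCP2 contigs, or related carriers, could have been divided among them.

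The ADP/ATP translocases stood far above UCP2 in every library and varied less between libraries. Summed over their 12 contigs they were at 3712 FPKM (untreated), 3808 (Tween), 3730 (low PET) and 3598 (high PET). The lowest library was thus 0.945 times the highest. UCP2 stood at 8.02% of the translocase sum in the untreated library, 7.01% in the Tween library, 12.3% in low PET and 12.4% in high PET. This ratio does not depend on the scaling of the libraries, and its pair of higher values was that of the PET libraries. UCP2 was chosen by that contrast, so nothing is read from this pair or from the wider spread of UCP2.

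Translocase 1, the carrier typical of muscle in mammals, had the highest sum of the 3. It was at 2176 FPKM (untreated), 2253 (Tween), 2117 (low PET) and 1948 (high PET), ranking between 50 and 59 among all annotations. High PET was the lowest library, 0.865 times the Tween library and 0.895 times the untreated library. Of its contigs, TR30430|c0_g1_i1 was at 757, 830.5, 780.0 and 722 FPKM and TR88504|c0_g1_i1 at 682, 719.8, 710.2 and 576 FPKM, both lowest in high PET. TR107056|c1_g1_i1 was at 737, 702, 625 and 649.7 FPKM, lowest in low PET, with both PET libraries below both without fibres. The remaining contig had a mean of 0.80 FPKM.

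Translocase 2, in mammals the form of dividing cells, rested almost wholly on TR10614|c0_g1_i1, at 313 FPKM (untreated), 300.2 (Tween), 312 (low PET) and 261 (high PET). On the deposited scale the 3 other libraries lay close together and high PET lay below them, at 0.871 times the Tween library in the annotation's sum. Under upper-quartile scaling the Tween library and low PET were below the untreated library as well, at log2 ratios of -0.19 and -0.22. Its other contigs had means of 0.24 and 0.305 FPKM. The sum of translocase 2 was at 314, 300, 313 and 262 FPKM. It was above UCP2 in the libraries without fibres (297 and 267 FPKM) and below UCP2 in the PET libraries (460 and 445 FPKM). UCP2 was chosen by that contrast, so nothing is read from this order.

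Translocase 3, in humans a broadly expressed form, was highest in high PET on the deposited scale, a direction against the Tween and untreated libraries that upper-quartile scaling turned. It summed to 1222 FPKM in the untreated library, 1254 in the Tween library, 1299.9 in low PET and 1388 in high PET, 1.11-fold above the Tween library and 1.14-fold above the untreated library at the higher concentration. TR107056|c0_g1_i1 was at 1057, 1099, 1131 and 1202 FPKM, and TR38455|c0_g1_i1 at 164, 155, 168 and 187 FPKM. Both were highest in high PET and had both PET libraries above both without fibres. That order held in 2 of the 6 translocase contigs past the filter, beside 24.0% of all contigs past it. Under upper-quartile scaling the log2 ratio of the summed translocase 3 in low PET turned too, from 0.052 to -0.039 against the Tween library. Against the untreated library it went from 0.089 to -0.13. As a share of the translocase sum, translocase 3 was at 32.9% in each library without fibres, 34.9% in low PET and 38.6% in high PET, while translocase 1 was at 58.6, 59.2, 56.8 and 54.1% and translocase 2 at 8.45, 7.89, 8.39 and 7.27%.

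**Figure D3:**
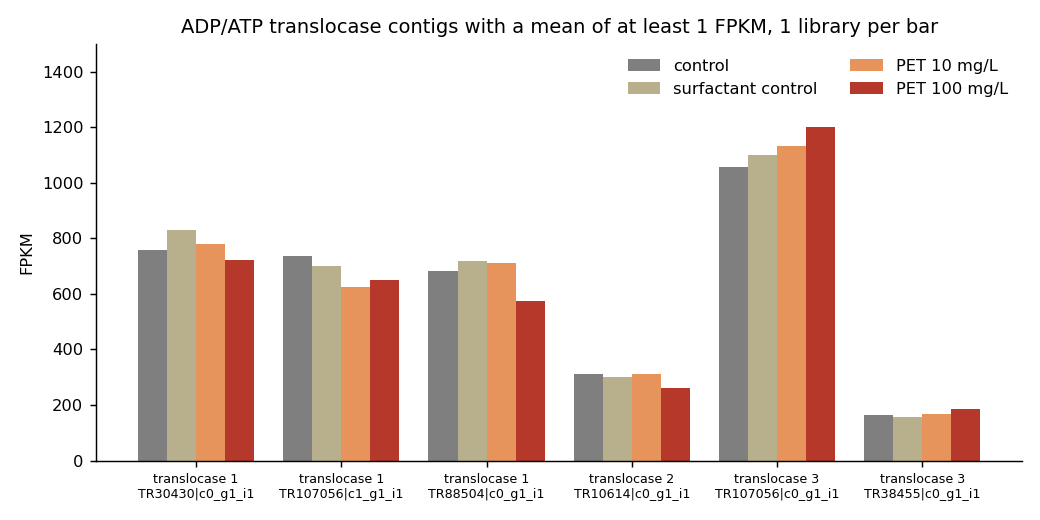
FPKM of the 6 ADP/ATP translocase contigs averaging 1 FPKM or more, 1 bar per library and no error bars. On this scale, before the scaling that turns translocase 3, its 2 contigs are highest in high PET (1202 and 187 FPKM), where 2 of the translocase 1 contigs and the translocase 2 contig are lowest (722, 576 and 261 FPKM).

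The directions of the translocases in high PET depend in part on scaling. The median of all contigs differs between libraries, and median-of-ratios scaling moved every log2 ratio of high PET to the Tween library by -0.14 and to the untreated library by -0.17. Relative to that shift, translocase 1 was at -0.35 against the Tween library, translocase 2 at -0.34 and UCP2 at 0.60, while translocase 3 was at 0.006. Under upper-quartile scaling translocase 3 turned from 0.15 to -0.015 against the Tween library and from 0.18 to -0.11 against the untreated one, translocases 1 and 2 were at -0.37 and -0.36, and UCP2 was at 0.58. Paralogous translocases share long stretches of sequence, and a contig of translocase 1 and a contig of translocase 3 carry the same assembly number, TR107056, so the division of reads between them is uncertain.

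None of the 6 translocase contigs averaging 1 FPKM or more was 2-fold apart in any of the 6 pairs of libraries. Over all 15 members past the filter, the count at least 2-fold apart was 2 for high PET against the Tween library, beside 15.9% of all contigs. The 2 were TR114588|c0_g1_i1 and TR114588|c0_g2_i2 of UCP2. It was 0 for Tween against untreated (14.5% of all contigs), low PET against the Tween library (15.5%), low PET against untreated (15.0%), high PET against untreated (15.3%) and high PET against low PET (15.4%). Of the members past the filter, 1 UCP2 contig and all 6 translocase contigs had means above 100 FPKM, and the background shares are not matched on level. Among the 406 annotations with a summed mean of at least 100 FPKM, changes of 2-fold were rare. At most 1 was at least 2-fold higher, and at most 1 at least 2-fold lower, in any pair.

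**Figure D4:**
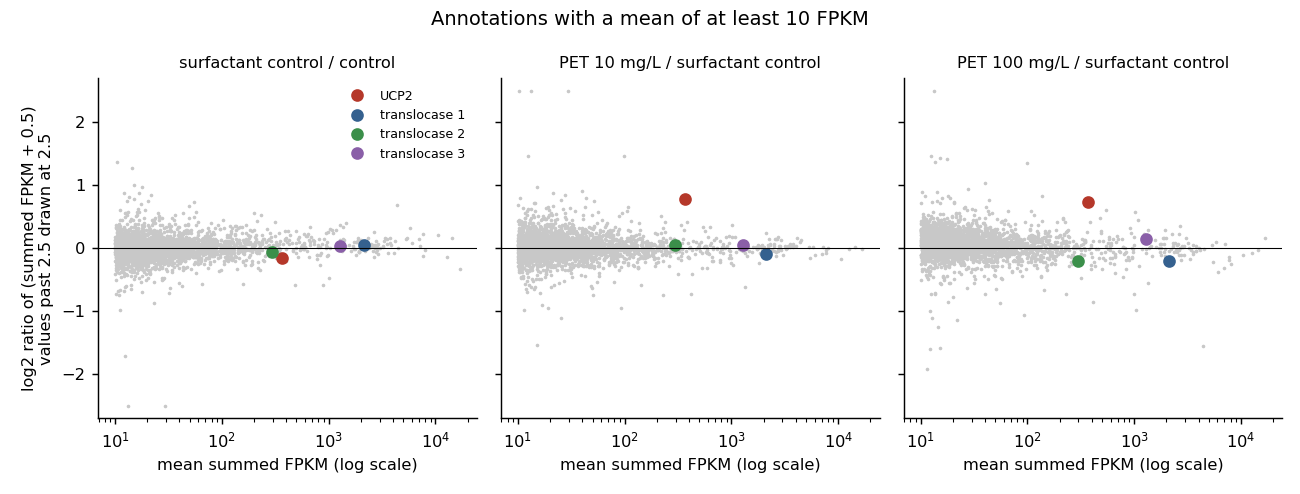
Log2 ratio of (summed FPKM + 0.5) against the mean summed FPKM (log axis) for annotations averaging 10 FPKM or more, in 3 comparisons; grey points are single annotations. UCP2 (red) lies at -0.16 in Tween against untreated and at 0.78 and 0.74 in the PET comparisons, which chose it, while the translocases stay between -0.21 and 0.15.

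A few carriers close to these families fell outside the descriptions used. Kidney mitochondrial carrier protein 1 (SLC25A30), a relative of the uncoupling proteins, summed to 22.4 FPKM (untreated), 22.2 (Tween), 21.6 (low PET) and 15.6 (high PET). Its main contig, TR90891|c1_g1_i1, was at 20.7, 18.6, 17.4 and 15.3 FPKM. A contig described as "ADP,ATP carrier protein 2" was listed at 0 in both libraries without fibres and was at 2.87 FPKM in low PET and 1.96 in high PET. Another, described as "ADP,ATP carrier protein 2, mitochondrial", was at 1.30, 1.85, 2.89 and 3.14 FPKM. Such wording is used for entries of other organisms, and whether these contigs are of the larvae was not tested.

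The other genes of mitochondrial transport and fuel use are described by sums over the contigs that carry each gene's symbol. Contigs of the same gene under other symbols are not counted, so these levels and counts can be partial. The alpha subunit of ATP synthase, for example, was far higher when summed by description. It would then be among the 4 subunits of highest level, and by symbol it was not. Over all 6457 annotations with a summed mean of at least 1 FPKM, the median log2 ratio was 0.00 for Tween against untreated, 0.03 for low PET against the Tween library and 0.08 for high PET against the Tween library. Annotations past a ratio of 25% higher were 11.2%, 14.1% and 18.1% of these in the same comparisons, and those past 20% lower, the inverse ratio, were 10.3%, 9.4% and 8.04%. Higher and lower counts of the lists use these limits and are set beside these shares, and nothing is called particular to a list. They are on the deposited scale; the shift of -0.14 for high PET against Tween is about as large as, or larger than, each list median above 0 in that comparison other than that of biogenesis.

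Of 41 other mitochondrial carriers looked for, 28 were matched to a contig and 23 passed the filter. Their median was 0.03 in low PET and 0.11 in high PET against the Tween library, with 3 higher and 2 lower in low PET and 7 higher and 3 lower in high PET. The 2-oxoglutarate/malate carrier SLC25A11, part of the malate-aspartate shuttle, was at 123 FPKM (untreated), 111 (Tween), 129 (low PET) and 143 (high PET). The carnitine/acylcarnitine carrier SLC25A20, which brings fatty acyl groups into the matrix, was at 58.5, 58.3, 55.1 and 61.6 FPKM. Mitochondrial pyruvate carrier subunit MPC1 was at 86.2, 89.9, 86.5 and 78.1, and the ATP-Mg/phosphate carrier SLC25A25 at 29.8, 27.9, 24.5 and 26.8. The largest ratios of high PET to the Tween library were those of the pyrimidine nucleotide carrier SLC25A36 and of the peroxisomal carrier SLC25A17. SLC25A36 was at 2.85, 2.16, 2.98 and 3.98 FPKM across the libraries. SLC25A17 was at 4.1, 4.95, 2.25 and 7.71, lowest in low PET. SLC25A42, a coenzyme A carrier, was at 0.54, 2.81, 1.16 and 1.19 FPKM and the carrier homologue MTCH2 at 2.30, 2.43, 2.25 and 1.5.

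ATP synthase, which makes the ATP that the translocases export, was looked for by 17 gene symbols, of which 11 were matched to a contig. All 11 passed the filter, with a median of 0.02 in low PET and -0.07 in high PET against the Tween library. In high PET 0 were higher and 3 lower, and in low PET 1 was higher and 1 lower. The catalytic beta subunit ATP5B was at 2269 FPKM (untreated), 2233 (Tween), 2241 (low PET) and 1967 (high PET). The membrane ring subunit ATP5G3 was at 914, 851, 733 and 618.5 FPKM, and both PET libraries were below both without fibres. The stator subunits ATP5F1 and ATP5H stayed within 627 to 693 FPKM and 569 to 605 FPKM. The subunits ATP5E and ATP5O were highest in high PET, at 633 and 348 FPKM against 558 and 316 in the Tween library. ATP5L was low and uneven, at 0.23, 3.29, 1.93 and 0.56 FPKM.

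Of 17 genes of phosphate transfer, 15 were matched and 8 passed the filter, with a median of 0.04 in low PET and -0.05 in high PET. In low PET 1 was higher and 0 lower, and in high PET 1 was higher and 1 lower. Muscle creatine kinase (CKM), which buffers ATP in muscle, was at 8402 FPKM (untreated), 7681 (Tween), 7526 (low PET) and 6977 (high PET). Its mitochondrial partner in muscle, CKMT2, was at 677, 738, 669.8 and 563 FPKM, lowest in high PET like translocase 1. Creatine kinase B was at 159.8, 159, 165 and 166 FPKM and adenylate kinase 1 at 145, 147, 136 and 134.5. The ubiquitous mitochondrial creatine kinase CKMT1 was highest in low PET, at 94.25 FPKM against 74.6, and the matrix kinase AK3 was at 18.2 and 19.65 FPKM in the PET libraries against 15.1. PPIF, a regulator of the permeability transition pore, was at 8.27, 9.23, 10.7 and 7.91.

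Fatty acid oxidation, whose substrates raise Ucp2 transcripts in mammals, had 14 of 20 genes matched and 9 past the filter. The medians were -0.08 in low PET and -0.05 in high PET. In low PET 1 was higher and 1 lower, and in high PET 2 were higher and 0 lower. The electron transfer flavoproteins ETFB and ETFA were at 161 and 111 FPKM in high PET against 167 and 98.4 in the Tween library. The very long-chain acyl-CoA dehydrogenase ACADVL was at 90.8, 92.6, 80.0 and 82.0 FPKM, with both PET libraries below both without fibres, and HADHB of the trifunctional protein was at 69.85, 68.4, 61.9 and 64.96, in the same pairs. The carnitine palmitoyltransferases were low: CPT1B was at 2.40, 0.33, 0.50 and 2.91 FPKM and CPT2 at 2.23, 1.54, 4.90 and 3.81. The lowest ratios in high PET were those of ACSL1, at 1.12 FPKM against 1.40, and of ACADVL.

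The list of fasting and PPAR response genes, to which mammalian Ucp2 is often assigned, had 11 of 20 genes matched and 7 past the filter. Its medians were -0.18 for Tween against untreated, 0.06 in low PET and 0.14 in high PET; the counts were 1 higher and 2 lower, 2 and 1, and 0 and 2. The pyruvate dehydrogenase kinase PDK2 was at 199.9 FPKM in the untreated library, 166 in the Tween library, 172 in low PET and 204 in high PET. Heart-type fatty acid-binding protein FABP3 was at 317, 330.2, 321 and 309.5, and FOXO3 at 44.8, 39.5, 41.2 and 43.6. The coactivator PPARGC1A was at 5.45, 5.06, 5.93 and 5.77 FPKM and FOXO1 at 4.71, 3.26, 4.76 and 3.85. The gluconeogenic enzyme PCK1 was at 3.48, 1.90, 6.31 and 0.60 FPKM, with the PET libraries at opposite ends, and FABP1 at 1.35, 3.34, 2.28 and 1.92.

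Antioxidant genes linked to mitochondria had 14 of 15 matched and 12 past the filter. Their medians were 0.11 for Tween against untreated, -0.06 in low PET and -0.02 in high PET. The counts higher and lower were 2 and 1, 0 and 3, and 0 and 2. The lipid peroxide-reducing enzyme GPX4 was at 589.5, 666, 731 and 760.2 FPKM across the libraries. IDH2, a source of matrix NADPH, was at 588, 619, 586 and 557, and superoxide dismutase 1 at 269, 293, 288 and 293. Peroxiredoxin-5 was at 155, 147, 154 and 178. Of the sensor and the transcription factor of the antioxidant response, KEAP1 was at 7.46, 5.48, 6.62 and 6.41 FPKM, NFE2L2 at 2.38, 2.66, 1.28 and 1.56, and the contigs with the symbol of catalase at 0.99, 3.43, 1.68 and 1.38. Of 18 genes of mitochondrial biogenesis, 4 were matched and only 2 passed the filter. The fission protein DNM1L was at 53.6, 49.5, 53.5 and 56.0 and the nuclear receptor ESRRG at 10.6, 10.2, 11.5 and 12.45. Medians of the biogenesis genes were 0.13 in low PET and 0.22 in high PET, with 0 past either limit.

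**Figure D5:**
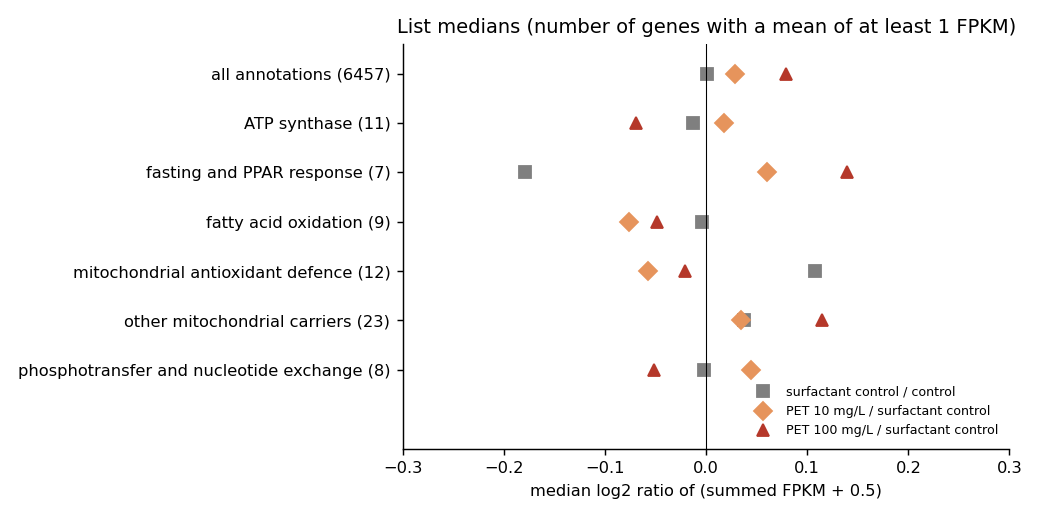
Median log2 ratio of (summed FPKM + 0.5) over the genes past the filter (their number in brackets) in 6 of the 7 lists, in 3 comparisons, beside all annotations; biogenesis, with 2 genes, is not drawn. The medians lie between -0.18 and 0.14, beside 0.00 to 0.08 over all annotations. List genes are summed by symbol and annotations by description, and no list was tested.

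The annotations whose levels followed UCP2 most closely over the 4 libraries were taken from the 3970 with a mean of at least 5 FPKM that were above 0 in every library. Likeness was the distance between log2 values centred on their own mean. The nearest was nucleoside diphosphate kinase A1, an enzyme that makes nucleoside triphosphates from ATP, at 20.1 FPKM (untreated), 18.8 (Tween), 32.4 (low PET) and 29.5 (high PET), at a distance of 0.08. Cytochrome P450 1A1, the enzyme induced through the aryl hydrocarbon receptor, was at 37.6, 30.5, 53.2 and 52.1 FPKM, at 0.12. Tyrosine aminotransferase (Tat), a liver enzyme of tyrosine breakdown, was at 94.15, 82.85, 130.7 and 125.8, at 0.15. The pumilio domain-containing protein KIAA0020 homolog was at 5.41, 5.40, 8.27 and 8.25 FPKM, at 0.16, and the zinc finger SWIM domain-containing protein ZSWIM6 at 6.73, 5.07, 8.76 and 8.81, at 0.21. Each had both PET libraries above both without fibres, an order that follows from choosing them by likeness to UCP2. These likenesses rest on 4 libraries and are descriptions.

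The summed liver markers were highest in high PET, while low PET was close to the Tween library. The libraries without fibres differed as well. Of 5 hepatocyte markers looked for, 3 were matched, and they summed to 235 FPKM (untreated), 296 (Tween), 302 (low PET) and 349 (high PET). Fibrinogen gamma chain was at 124.5, 157, 149.9 and 185 FPKM, higher in the Tween library than in low PET. Apolipoprotein A-I was at 10.5, 13.5, 19.4 and 18.55 FPKM, and fetuin-B at 99.55, 125, 132 and 145. The Tween library was above the untreated library in all 3 markers. It was below the untreated library for UCP2 and for the liver enzyme tyrosine aminotransferase, at 82.85 against 94.15 FPKM. That enzyme was picked for its likeness to UCP2 over these same libraries, so nothing is read from their shared order. The matched markers of macrophages and granulocytes were low: the transcription factor PU.1 was at 3.48, 3.21, 4.57 and 5.03 FPKM, and MPEG1 was at 0.89 in the Tween library and 4.58 in low PET and was listed at 0 in the untreated library and in high PET. The skeletal muscle markers summed to 12117 FPKM (untreated), 11583 (Tween), 11165 (low PET) and 10262 (high PET), lowest where translocase 1 was lowest. Their highest library was the untreated one, whereas translocase 1 was highest in the Tween library. Most of the muscle sum is CKM, also given above. Fast troponins I and T were lowest in high PET too. The contigs with the symbol ACTA1, of skeletal muscle actin, went the other way, at 1.1, 0.77, 4.31 and 4.04 FPKM. Summed by description, that actin had a far higher level. In high PET it was then above the Tween library and below the untreated library. The other summed markers were at 270.5, 292, 309 and 293 FPKM for heart, 111, 116, 132 and 128 for enterocytes and 60.4, 57.0, 65.3 and 62.5 for neurons. Of 4 red blood cell markers looked for, 3 were matched by symbol, HBB not among them, and they did not go together. The erythroid heme enzyme ALAS2 was at 38.0, 37.3, 44.8 and 42.6 FPKM. The band 3 anion exchanger SLC4A1 was at 23.7, 16.1, 13.8 and 16.0. The 1 contig with the symbol HBA, described as hemoglobin subunit alpha-B, was at 2.18, 1.11, 0.72 and 0.78. Hemoglobin contigs under other symbols would not be counted. The matched red blood cell markers summed to 63.9, 54.5, 59.3 and 59.4. Of 4 adipocyte markers FABP4 alone passed the filter, at 57.3, 62.7, 60.5 and 64.9. The part of these cell types in the levels of UCP2 and of the translocases was not tested.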

How the data were processed

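Whole larvae of 4 groups were sequenced, 1 library each. The authors deposited expression as FPKM, per the file headers, in 1 table with 1 column per library. Per the submitters' processing notes, the tools included RSEM, Bowtie and bcl2fastq 2.20.0.422. Assembly and annotation of the contigs are not given in the sources. FPKM hides the counts, and RSEM divides reads among similar contigs, so a single contig's level rests on that division. Ratios are log2 of FPKM + 0.5, which understates ratios of low contigs; plain folds were taken of summed FPKM. The 28 members were summed by description, with the Swiss-Prot source removed. Counts of contigs use those whose mean reached 1 FPKM. The limits of 1.5-fold and of 100 FPKM were set after values were seen, as was leaving out a suffixed symbol that is itself a list gene. Genes of the 7 lists and 8 marker lists were matched by symbol, ignoring case and a final a or b. All members are described, and the 5 annotations nearest to UCP2 in profile are named. From each list, the 4 genes with the highest level, as summed by symbol, are named. So are the 2 with the highest and 2 with the lowest ratio of high PET to Tween. Members and lists were chosen with earlier results of these data known. Alternatives were 2 other pseudocounts, 2 scalings, the main contig alone, no filter, and UCP2 without TR91319, the last chosen after the data were seen. Calculations used Python 3.11.15 with pandas 2.3.3 and numpy 2.4.6 and were tested on simulated data. No sequence is shown.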

Additional observations from a re-analysis of the deposited data

How the results depend on the processing

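Each group held 1 library, and no replicate was left out. No paired analysis was possible because the groups hold 1 library each. Counting error is unknown, as FPKM hides the counts. Values below are log2 ratios, or counts of contigs where so named. A ratio was taken as moved at a difference of 0.1 or more, and a count at any change. Of 174 recomputed ratios and counts, 122 stayed the same by these limits, 51 moved and 1 reversed. A change of sign in a ratio under 25% was not counted as reversed.

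Median-of-ratios scaling put UCP2 at 0.60 for high PET against Tween, 0.41 against untreated and -0.15 against low PET, and the summed translocases at -0.22, -0.21 and -0.15. Upper-quartile scaling put UCP2 at -0.29 for Tween against untreated, 0.58 for high PET against Tween, 0.41 for low PET against untreated and 0.29 for high PET against untreated; the summed translocases were at -0.093, -0.24, -0.21 and -0.34. The main translocase contig alone, that of translocase 3, gave 0.13, 0.18 and 0.087 for high PET against Tween, untreated and low PET.

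Without TR91319, UCP2 reversed for low PET against untreated, at -0.019. It was at -0.43 for Tween against untreated, 0.41 for low PET and 0.86 for high PET against Tween, 0.43 for high PET against untreated and 0.45 for high PET against low PET. Which contigs enter the sum is all that this changes. UCP2 stayed above 0 in both PET libraries against both others under every other setting tried.

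Member contigs at least 2-fold apart numbered 1, 1, 4, 2, 3 and 2 with no filter, in the order Tween against untreated, low and high PET against Tween, low and high PET against untreated, and high against low PET, beside 22.0, 24.1, 24.8, 22.8, 23.5 and 25% of all 257521 contigs. The count of 2 for high PET against Tween became 1 with a pseudocount of 1 FPKM (12.8% of all contigs past the filter) and 1 with median-of-ratios scaling (15.3%).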
